A study of Mus musculus with 36 samples.

Results

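The growth hormone and STAT5 axis was followed here through 10 genes: Ghr, Jak2, Stat5a, Stat5b, Socs2, Cish, Bcl6, Cux2, Igf1 and Igfals. Members were all rows of the 6 deposited H3K9me3 tables whose gene symbol was one of these names, which gave 321 of 786789 rows. A row is a bin, a stretch of about 500 bp or less inside a broad H3K9me3 peak, and the symbol is that of the gene start nearest to it. The symbol therefore places a bin near a gene and does not show that the bin acts on it.

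The samples were livers of mouse offspring, in every group floxed littermate controls from a Reg3g fl/fl colony on a C57BL/6J background. Their dams received chow (control) or a Western-style diet (maternal obesity, MO) before mating and through gestation and lactation. Livers were taken at 3 weeks, before weaning, or at 8 weeks, after 5 weeks on chow. The 32 ChIP libraries formed 8 groups of 4: control and MO females (CF, MF) and control and MO males (CM, MM) at each age, with 4 input libraries beside them. Whole liver was used, so a difference in the mix of cells and a difference within hepatocytes cannot be told apart. The 4 libraries of a group were labelled as separate samples, and the labels name no dams or litters.

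Each table gives for a bin the authors' mean signal, an average log2 CPM (read counts scaled to library size, on a log2 scale) over the 8 libraries of the groups it pools. The 3-week and 8-week tables each pool control and MO offspring of a sex, and the remaining table pools control offspring of both ages. The difference between MO and control offspring cannot be read from a pooled mean and is not reported here. The tables also hold the authors' own fold changes and p-values over these libraries, which were not used here. From the pooled means alone no spread between animals and no test can be computed, and the files give no depth per library. Every comparison below is a description of pooled means or of peak positions. The table medians ran from 2.03 (males, 3 weeks) to 2.74 (males, 8 weeks), so levels were also read as percentiles among all bins of the same table. These percentiles rank the CPM of a bin and take no account of its width. The number of bins listed ran from 102145 (males, 8 weeks) to 159357 (males, 3 weeks). A percentile can therefore differ between ages without a change at the bin. Each table lists 1 bin per peak by a rule that is not stated, so the listed bins may not stand for their peaks, and percentiles, medians and differences between ages hold for the listed bins.

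Growth hormone binds its receptor on hepatocytes, the receptor-bound kinase JAK2 phosphorylates STAT5, and STAT5 enters the nucleus and binds a palindromic DNA motif. Its targets include the secreted growth factor IGF1 and its serum partner IGFALS, as well as SOCS2 and CIS, which shut the receptor down again. The pattern of growth hormone release differs between adult males and females, and BCL6 (higher in male liver) and CUX2 (a female-enriched factor) are repressors that help set sex-biased expression downstream of it. H3K9me3 marks repressed chromatin, where it is best known over repeats and silent gene clusters.

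The 10 genes differed mainly in how much of the gene lay inside peaks. The Cux2 gene was almost entirely covered, in females 85.8% and in males 90.4% of its 194 kb. Ghr and Jak2, the receptor and its kinase, were nearly bare at 0.359% and 1.58% in females, and at 0.386% and 0% in males. Igf1 had no base inside a peak in either sex. The median over 21728 protein-coding genes was 9.20% in females and 9.64% in males, so Cux2 lay at percentile 92.9 in females and 94.2 in males, while Igf1 was at 0 together with 19.8% of all genes in females and 20.8% in males.

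**Figure D1:**
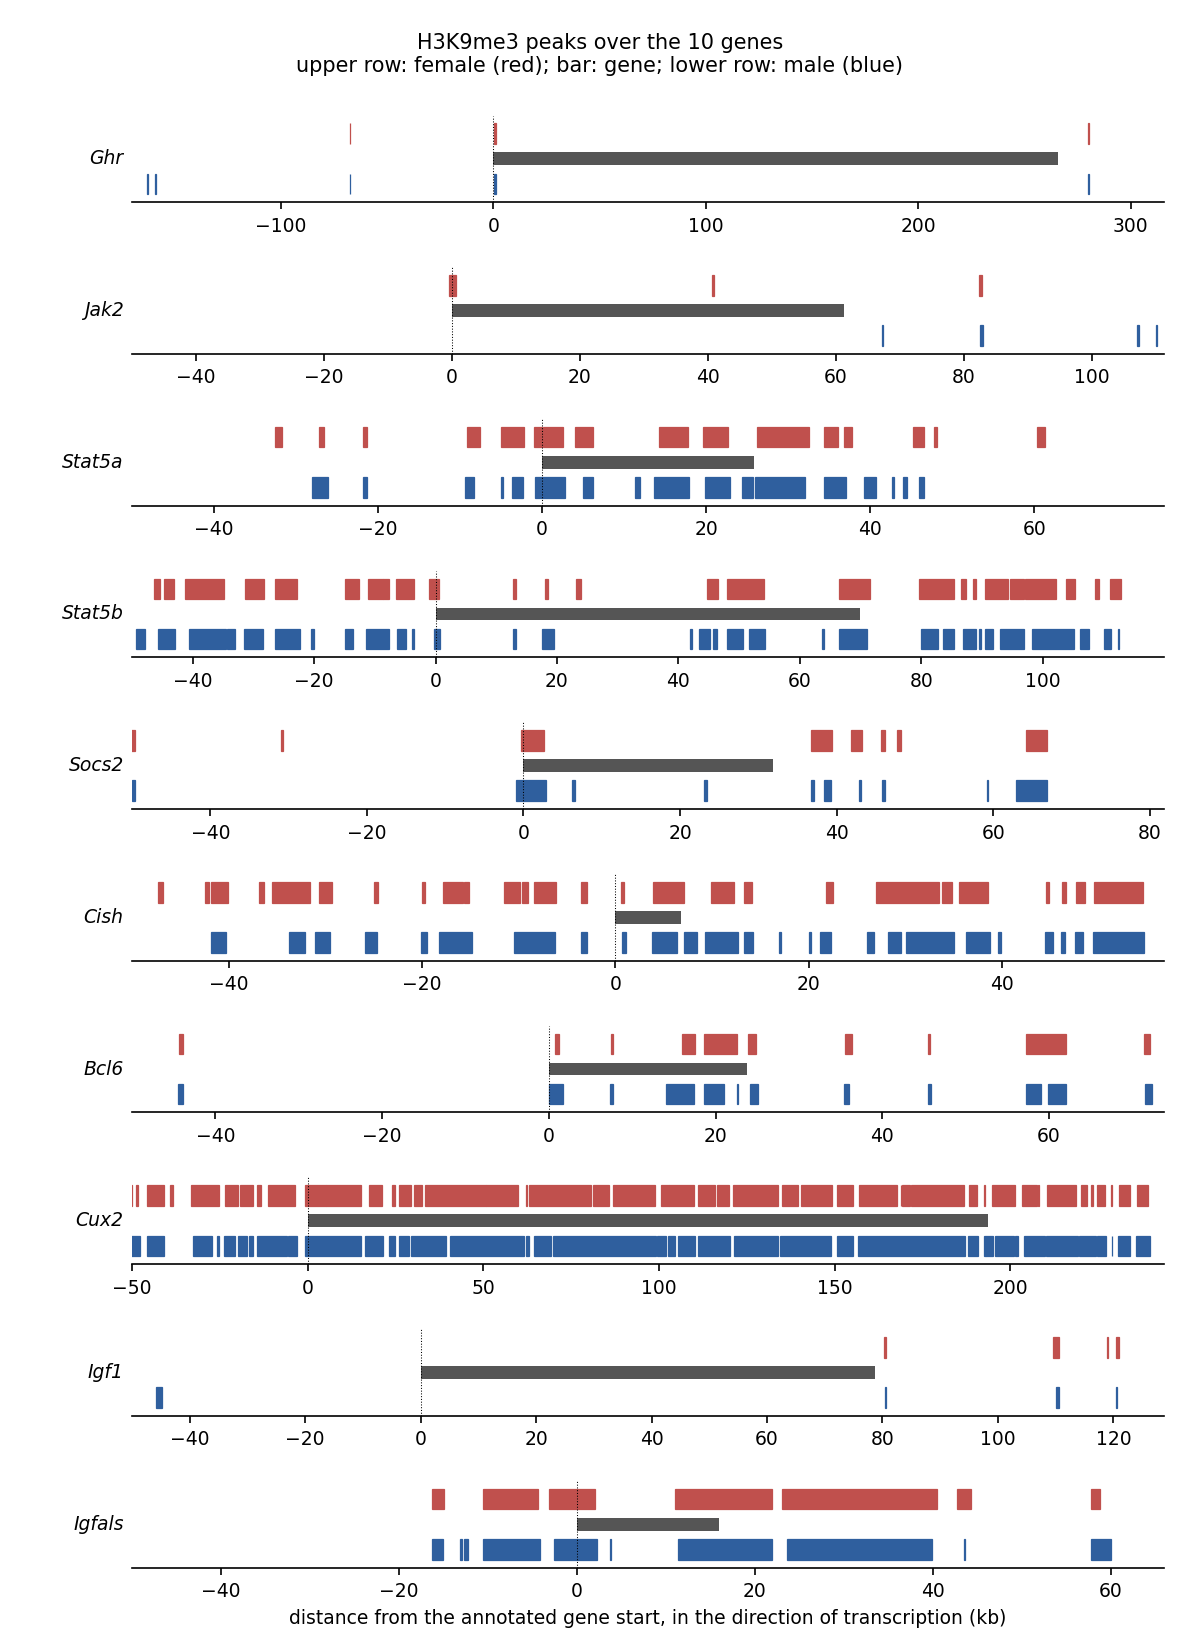
Positions of H3K9me3 peaks around the 10 genes, as distance in kb from the annotated gene start in the direction of transcription, with female peaks in red above the gene bar and male peaks in blue below it. Cux2 is tiled by peaks from end to end, while the bodies of Ghr, Jak2 and Igf1 are almost free of them in both sexes.

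Between these ends lay the other members. In females, peaks covered 46.4% of Cish, 43.9% of Stat5a, 43.7% of Igfals, 27.0% of Bcl6, 19.8% of Stat5b and 8.30% of Socs2. The male values were 44.9% for Cish, 51.5% for Stat5a, 44.0% for Igfals, 33.6% for Bcl6, 21.9% for Stat5b and 11.3% for Socs2. The order of the genes was thus alike in both sexes apart from the exchange of Cish and Stat5a and of Ghr and Jak2. The sexes share no library, although their peaks were called by the same procedure. Counting only peaks listed in all 3 tables of a sex, coverage was 0% for Ghr in females, 11.6% for Stat5b in males and 19.6% for Bcl6 in males.

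**Figure D2:**
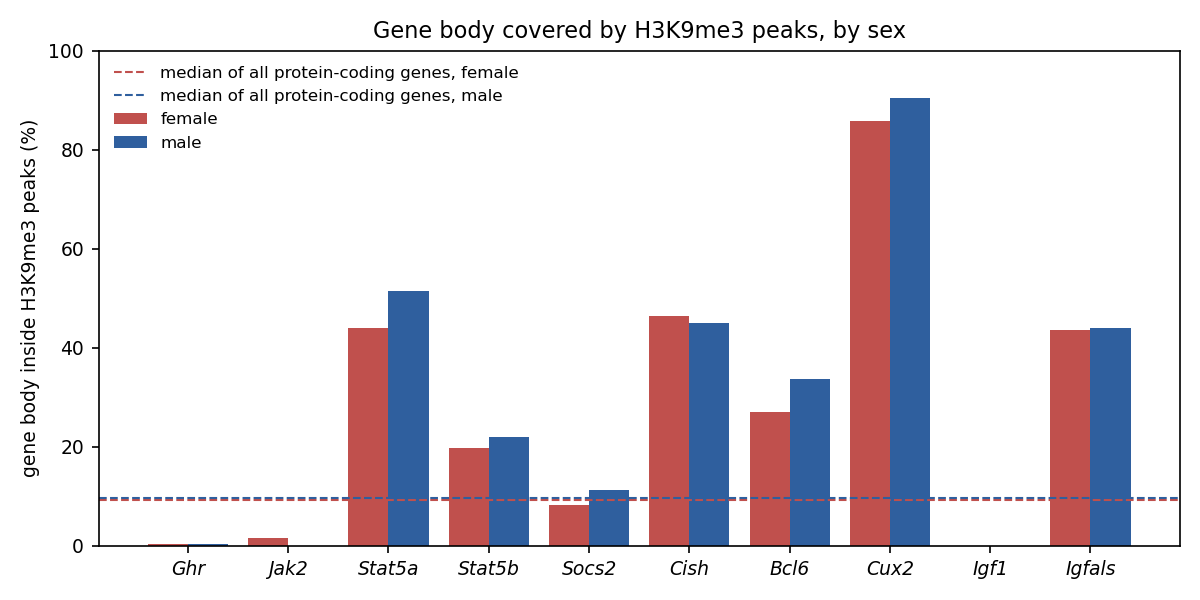
Share of each gene body inside H3K9me3 peaks (percent of bases), with females in red and males in blue. Dashed lines mark the medians over all protein-coding genes, 9.20% in females and 9.64% in males; Stat5a, Stat5b, Cish, Bcl6, Cux2 and Igfals lie above them in both sexes.

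This order followed the base composition of the genes. Across all 21728 genes, coverage and GC content of the gene body had a Spearman rho of 0.815 in each sex, given as a description because neighboring genes share peaks. The bare genes were the AT-rich ones: 39.3% GC for Ghr, 39.4% for Jak2 and 41.0% for Igf1, against a median gene of 45.3%. Cux2 had 52.4% GC, Cish 52.6%, Igfals 51.1%, Stat5a 49.9% and Bcl6 48.2%. Cux2 remained high beside genes of like composition: among the 72 genes longer than 100 kb with a GC content within 2 percentage points of its own, the median coverage was 67.6% in both sexes, and 4 genes in females and 1 in males exceeded Cux2. How much of the coverage comes from base composition was not tested. The input libraries were not compared here, so it was also not tested whether the signal exceeds that of input DNA. Coverage was not confined to genes that are silent in liver: Cebpb, a factor known to be active there, was covered over 100% in both sexes. Coverage is therefore given as the extent of the called peaks, not as a measure of repression.

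**Figure D3:**
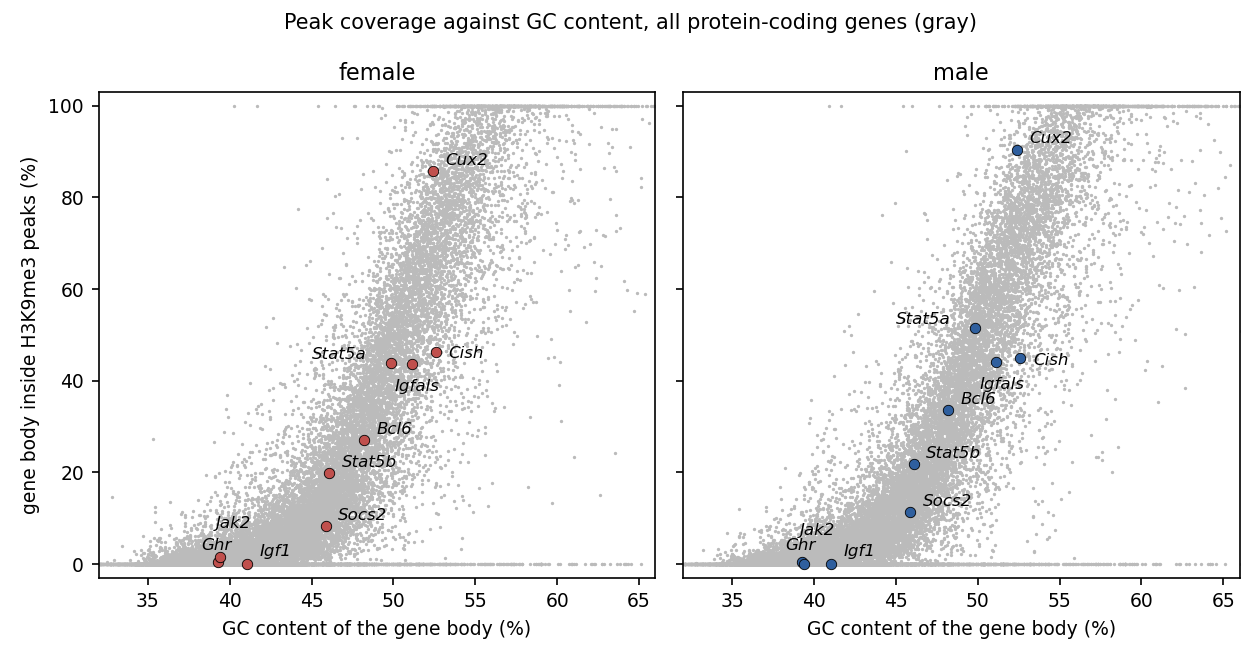
Share of the gene body inside H3K9me3 peaks (percent) against the GC content of the gene body (percent), 1 gray point per protein-coding gene, with the 10 members in red (female) or blue (male). The members follow the trend of all genes, from Ghr at 39.3% GC to Cux2 at 52.4% GC, with Cux2 in its upper part and Cish in its lower part.

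Ghr encodes the growth hormone receptor. Its gene spans 266 kb on chromosome 15, and only a peak of 0.955 kb in females and 1.02 kb in males touched it, within the promoter region and 335 bp and 158 bp inside the outermost annotated start. The bin there had a mean of 2.64 log2 CPM in control females (both ages) and 2.68 in females at 8 weeks, and it was not listed at 3 weeks. In males it had 2.16 at 3 weeks, 2.43 in controls of both ages and 2.93 at 8 weeks, at percentiles 66.3, 81.4 and 70.5.

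The most persistent Ghr bin lay far upstream, at -67.3 kb, and was listed in all 6 tables. In females (chr15:3650812-3651082) it had 2.94 log2 CPM at 3 weeks, 3.05 in controls of both ages and 2.81 at 8 weeks. In males (chr15:3650791-3651083) the values were 2.28, 2.25 and 2.86. Relative to its own table it stood highest in 3-week females, at percentile 95.7, and lowest in 8-week males, at 64.2. It is an intergenic bin, and 90.04% of the female and 84.6% of the male bin is soft-masked, that is, marked as repeat in the reference. The sequence (GRCm38, plus strand, chr15:3650812-3651082) is shown because it is the Ghr bin found everywhere, with the repeat in capitals.
Ghr upstream: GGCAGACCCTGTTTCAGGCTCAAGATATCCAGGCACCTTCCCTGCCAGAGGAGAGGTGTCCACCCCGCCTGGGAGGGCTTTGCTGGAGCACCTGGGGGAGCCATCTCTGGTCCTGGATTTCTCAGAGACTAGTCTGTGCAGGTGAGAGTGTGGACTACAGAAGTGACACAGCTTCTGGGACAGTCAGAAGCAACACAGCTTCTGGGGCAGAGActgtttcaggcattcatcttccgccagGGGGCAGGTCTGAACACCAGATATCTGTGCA
Males had 2 further Ghr bins, at -159 kb and -162 kb, the latter inside an exon of another annotated transcript, which were not listed in females.

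Jak2, the kinase bound to the receptor, showed the plainest difference between the sexes in peak position. A peak of 1.22 kb covered its start in females, and no male peak lay within 50.7 kb of that start. The female promoter bins were among the most GC-rich of all member bins, at 74.3% and 80.4% GC. The bin at chr19:29251805-29252305 had 2.62 log2 CPM at 3 weeks (percentile 77.4) and 2.57 in control females of both ages (38.1), and the neighboring bin listed at 8 weeks had 2.48 (30.1). An intergenic bin at -50.7 kb was listed at 3 weeks in both sexes, with 2.49 in females and 2.08 in males. Without read counts per library no limit can be set on the male signal at the start, so a missing peak here does not show that the mark is absent.

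Stat5a and Stat5b, the closely related signal transducers, lie beside each other on chromosome 11 in a stretch with many peaks. Their starts were inside peaks in both sexes, as were 48.5% of all protein-coding gene starts in females and 49.6% in males (6 of the 10 members in each sex). Stat5a had 6 peaks in females and 7 in males, and Stat5b 6 and 9. The Stat5a bin at the promoter (chr11:100860443-100860943) had 2.22 log2 CPM in 3-week females, 2.63 in control females and 2.46 in 8-week females, at percentiles 19.5, 46.7 and 26.8. The male promoter bin listed at 8 weeks, at 2.17 log2 CPM, was at percentile 0.179, near the bottom of its table. The highest Stat5a bin at 3 weeks lay in the 3' part of the gene, annotated as the promoter of a shorter transcript, in both sexes, with 2.70 in females (chr11:100878979-100879479, percentile 84.5) and 2.44 in males (chr11:100879186-100879686, percentile 89.9).

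The highest Stat5b bin was always at 1 of 2 places, the promoter or intron 1. A bin of intron 3 nevertheless ranked above the promoter bin at 3 weeks, at percentile 77.5 in females and 91.4 in males. In control males it did so too, at 80.4. The promoter bin had 2.49, 3.08 and 3.04 log2 CPM in 3-week, control and 8-week females (chr11:100850222-100850722, 80.6% GC), at percentiles 61.4, 89.0 and 84.6. The overlapping male bin (chr11:100849935-100850435) had 2.22 at 3 weeks and 3.13 at 8 weeks, at percentiles 72.7 and 84.4. In control males another bin of the start was listed, with 2.00 at percentile 37.3. The other place was a bin of intron 1, listed in all 6 tables, with 2.81, 2.93 and 2.87 in females (chr11:100837458-100837958) and 2.80, 2.59 and 3.09 in males (chr11:100837501-100837985). It lay between percentile 73.8 and 98.6. The soft-masked share of this bin was 71.1% in females and 71.8% in males; the middle 300 bases of the shared stretch (GRCm38, plus strand, chr11:100837579-100837878) are shown with the repeats in capitals.
Stat5b intron 1: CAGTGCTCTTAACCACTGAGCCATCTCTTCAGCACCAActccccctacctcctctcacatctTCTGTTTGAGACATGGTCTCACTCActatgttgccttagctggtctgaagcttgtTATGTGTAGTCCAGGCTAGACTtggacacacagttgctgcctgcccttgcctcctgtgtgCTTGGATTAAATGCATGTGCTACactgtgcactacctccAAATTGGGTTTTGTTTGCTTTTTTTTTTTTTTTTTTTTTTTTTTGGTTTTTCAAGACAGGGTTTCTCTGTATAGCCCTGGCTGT

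Cish and Socs2 encode the STAT5-induced inhibitors CIS and SOCS2, and both carried STAT motifs inside their H3K9me3 peaks. The motif was searched as TTCNNNGAA, which reads the same on either strand, and as the narrower TTCCNGGAA, a subset of it. The Cish bin at the start of the gene (female chr9:107296655-107296969, male chr9:107296698-107297175) held 4 matches of TTCNNNGAA in females, of which 2 lie in the male bin. They are printed as pairs, with the motif in capitals (GRCm38, plus strand, chr9:107296655-107296682 and chr9:107296763-107296790), since 4 STAT motifs occurred in no other member bin.
Cish pair, left: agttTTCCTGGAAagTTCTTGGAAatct
Cish pair, right: gTTCTAGGAAgatgaggcTTCCGGGAAg
The bin with all 4 motifs had 1.96 log2 CPM in 3-week females (percentile 0.729) and 2.36 in control females of both ages (8.55), and it was not listed at 8 weeks. It is only 315 bp wide, and per length it had 12.3 and 16.3 CPM per kb, the latter the highest Cish value of its table. The male bin, of 478 bp, had 2.06, 2.15 and 2.69 log2 CPM at percentiles 54.0, 55.8 and 42.9, which is 8.74, 9.28 and 13.5 CPM per kb. An intergenic bin 13.4 kb downstream of the gene start had 2.72, 2.75 and 2.71 in females, the highest Cish bin of the 3-week and control tables. At 8 weeks the highest was a bin in the peak that begins 3.94 kb into the gene, with 2.76. In control and 8-week males the bin at the start was itself the highest Cish bin.

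Socs2 had a peak of 3.02 kb in females and 3.84 kb in males over its start, with 2 further male peaks inside the gene listed at 3 weeks alone. The bin listed for that peak differed between tables, with 2.47, 2.67 and 2.87 log2 CPM in 3-week, control and 8-week females (percentiles 59.8, 52.8 and 74.3) and 2.09, 2.34 and 2.52 in males (57.7, 74.7 and 19.8). Because the positions differ, these values are not a course over age. A tandem of 2 TTCCNGGAA motifs lies in this peak in both sexes, 0.257 and 0.268 kb into the gene, outside the listed bins (GRCm38, plus strand, chr10:95416900-95416927).
Socs2 pair: cgctTTCCAGGAActTTCCAGGAAtccg
With 2 of the narrower motif in the peak sequence of Socs2, the density was 66.3 per 100 kb in females and 43.8 in males, beside 2.95 and 2.97 per 100 kb over all peaks.

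Bcl6, a repressor more abundant in male liver, had 7 peaks in females and 8 in males. They were spread over the gene, its promoter, the stretch beyond its 3' end and 43.9 kb upstream. The male peak at the promoter reached the annotated start and the female peak stopped 711 bp short of it. In the gene, the highest values were at 8 weeks: 3.45 log2 CPM in females (chr16:23967766-23968266, exon 9, percentile 96.2) and 3.42 in males (chr16:23967855-23968355, exon 8, percentile 94.1). At 3 weeks the female table listed another bin of this region, with 2.46 (percentile 58.3), so the ages cannot be set against each other there.

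A bin in intron 1 of Bcl6 held STAT motifs and was listed in all 6 tables. The female bin (chr16:23981099-23981435) contained 2 and the male bin (chr16:23981187-23981495) 3 matches of TTCNNNGAA. Its signal was 2.10, 2.77 and 2.72 log2 CPM in 3-week, control and 8-week females, at percentiles 6.26, 65.2 and 60.2. Male values were 1.93, 2.08 and 2.58, at percentiles 35.4, 47.8 and 27.5. These bins are 337 and 309 bp wide, and per length they had 12.7, 20.2 and 19.5 CPM per kb in females and 12.3, 13.7 and 19.3 in males. The stretch shown (GRCm38, plus strand, chr16:23981284-23981495) starts just upstream of an alternative RefSeq start of Bcl6, a gene on the minus strand, and has the 3 motifs in capitals.
Bcl6 intron 1: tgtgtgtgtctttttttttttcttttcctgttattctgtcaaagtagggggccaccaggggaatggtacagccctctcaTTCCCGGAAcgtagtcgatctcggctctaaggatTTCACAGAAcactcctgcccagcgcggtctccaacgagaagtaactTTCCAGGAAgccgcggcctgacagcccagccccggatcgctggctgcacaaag

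The upstream Bcl6 bin at -43.9 kb was among the strongest member bins at 3 weeks in both sexes. Females had 3.15 log2 CPM at 3 weeks, 3.16 in controls of both ages and 2.75 at 8 weeks. Males had 2.87, 2.61 and 2.56. The percentile went from 98.9 at 3 weeks to 63.8 at 8 weeks in females and from 99.1 to 25.6 in males, with 92.3 and 91.0 in the control tables that pool both ages. Repeats made up 59.3% of the female and 62.3% of the male bin, and neither held a TTCNNNGAA match.

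Cux2, the female-enriched repressor, gave the most member bins, 145 of 321. Its peaks summed to 191 kb in females (30 peaks, the longest 17.7 kb) and 193 kb in males (23 peaks, the longest 30.3 kb). Among the 2487 genes longer than 100 kb, whose median coverage was 3.50% in females and 3.72% in males, only 6 in females and 2 in males were covered more fully. The male minus female difference of 4.67 percentage points stands beside an interquartile range over all genes from -1.05 to 2.33; at least 4 points in favor of males were seen in 18.8% of genes. Stat5a, at 7.58 points, and Bcl6, at 6.59 points, differed more.

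Each table lists 1 bin per peak, so the signal of Cux2 is given only at 21 to 28 bins a table, whatever the length of the peak. In females the listed Cux2 bins had a median of 9.96 CPM per kb at 3 weeks, 11.4 in controls of both ages and 12.2 at 8 weeks, and in males 7.81, 8.73 and 13.4. These medians were near the values of Stat5a, at 9.34, 12.4 and 10.8 in females and 9.27, 8.95 and 12.0 in males. The highest Cux2 bin in females was at percentile 87.7 at 3 weeks, 62.2 in controls and 90.4 at 8 weeks. Males had single high bins within the domain: 3.69 log2 CPM in intron 2 (chr5:122006108-122006608, controls of both ages, percentile 99.8), and 3.22 and 3.72 just upstream (chr5:122054633-122055133, controls of both ages and 8 weeks, percentiles 99.1 and 97.7). The bin in intron 2 was 54.7% repeat, and the upstream bin lay in an exon of another annotated transcript. Neither position was listed in the male 3-week table.

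The Cux2 domain also held STAT motifs. Peaks of Cux2 contained 7 TTCCNGGAA motifs in each sex, which is 3.66 per 100 kb in females and 3.62 in males. Over all peaks the density was 2.95 and 2.97 per 100 kb. An example in intron 2 was listed in males, with 2.02 log2 CPM in controls (percentile 39.9) and 2.80 at 8 weeks (57.4), and 300 bases around it are shown with the motif in capitals (GRCm38, plus strand, chr5:121943980-121944279).
Cux2 intron 2: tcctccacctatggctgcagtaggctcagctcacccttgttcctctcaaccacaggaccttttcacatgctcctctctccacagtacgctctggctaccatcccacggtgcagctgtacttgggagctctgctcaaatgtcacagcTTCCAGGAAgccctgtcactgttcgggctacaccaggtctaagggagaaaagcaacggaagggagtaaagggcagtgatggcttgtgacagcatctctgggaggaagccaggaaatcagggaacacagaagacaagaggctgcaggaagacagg

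The outputs of the pathway differed from each other. Igf1, the main growth factor induced by growth hormone in liver, had no bin in any female table. Males had 1 intergenic bin at -44.8 kb, with 1.96 log2 CPM at 3 weeks (percentile 40.02) and 1.87 in controls (19.7), and none at 8 weeks. The nearest female peak lay 80.2 kb from the gene start, beyond the 3' end. Igfals, which encodes the acid-labile subunit that holds IGF1 in serum, was inside peaks at its start in both sexes. Its bins lay between percentile 5.46 and 67.2, with 2.53, 2.50 and 2.61 log2 CPM for the highest bin of the 3-week, control and 8-week table in females and 2.01, 2.14 and 2.49 in males. A TTCCNGGAA motif lies in the peak at its start, 1.32 kb upstream of the gene, in both sexes (GRCm38, plus strand, chr17:24864665-24864693).
Igfals upstream: tagcaactacTTCCAGGAAttagtacctg

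Over all members, 28 of 213 distinct bins (13.15%) held TTCNNNGAA, beside 9.78% of the 414426 distinct bins of the series. For TTCCNGGAA the count was 7 of 213, or 3.29%, beside 1.21%. Bins of both sexes overlap and so share motifs: the matches came to 30 distinct positions, 14 of them in Cux2, 5 in Cish, 4 in Stat5a, 3 in Bcl6, 2 in Igfals and 1 each in Ghr and Stat5b. Jak2, Socs2 and Igf1 bins had none. In whole peaks, 15 distinct TTCCNGGAA positions were found, 13 of them in peaks of both sexes, and the density was 5.50 per 100 kb in females and 5.32 in males. A match of these letters is not evidence of binding. A position at -3.63 kb from the Stat5b start and -5.01 kb from the Stat5a start was assigned to Stat5a in females and to Stat5b in males, in peaks of different extent. The male bin with this motif (GRCm38, plus strand, chr11:100854339-100854620) had 1.99, 2.14 and 2.47 log2 CPM.
Stat5b upstream: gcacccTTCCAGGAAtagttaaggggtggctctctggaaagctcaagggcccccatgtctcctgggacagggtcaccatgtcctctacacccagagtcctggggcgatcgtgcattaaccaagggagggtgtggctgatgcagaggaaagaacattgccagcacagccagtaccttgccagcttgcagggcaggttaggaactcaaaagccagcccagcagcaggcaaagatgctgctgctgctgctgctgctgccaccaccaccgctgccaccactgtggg

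Of the member bins, 15 of 213 distinct bins (7.04%) were soft-masked over at least 50% of their bases, beside 19.35% of all distinct bins of the series. Cux2 had 1 such bin of 113, and the other genes 14 of 100. These bins were unevenly spread: 4 of 17 Stat5b bins, 3 of 6 Ghr bins, 3 of 21 Bcl6 bins, 2 of 4 Jak2 bins, and 1 each in Socs2, Cish and Cux2. The bins printed for Ghr upstream and Stat5b intron 1 and the upstream Bcl6 bin are of this kind. The median GC content of member bins, between 53.9% and 56.3% by table, was within 2 percentage points of that of all bins in every table.

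As a group the members' signal was ordinary. The median percentile of their bins was 54.8 at 3 weeks, 38.1 in controls and 47.7 at 8 weeks in females, and 46.3, 51.2 and 42.9 in males. Between 8 and 10 of the genes had a bin in a given table, a number for which the share of all genes was not counted. Of the 321 member bins, 145 were above the median of their table. In the 3-week females, Bcl6 bins ran from percentile 6.26 to 98.9 and Cish bins from 0.729 to 85.8. The lowest of each were short bins, and per length the Bcl6 bins ran from 10.8 to 17.8 CPM per kb and the Cish bins from 9.80 to 13.2.

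**Figure D4:**
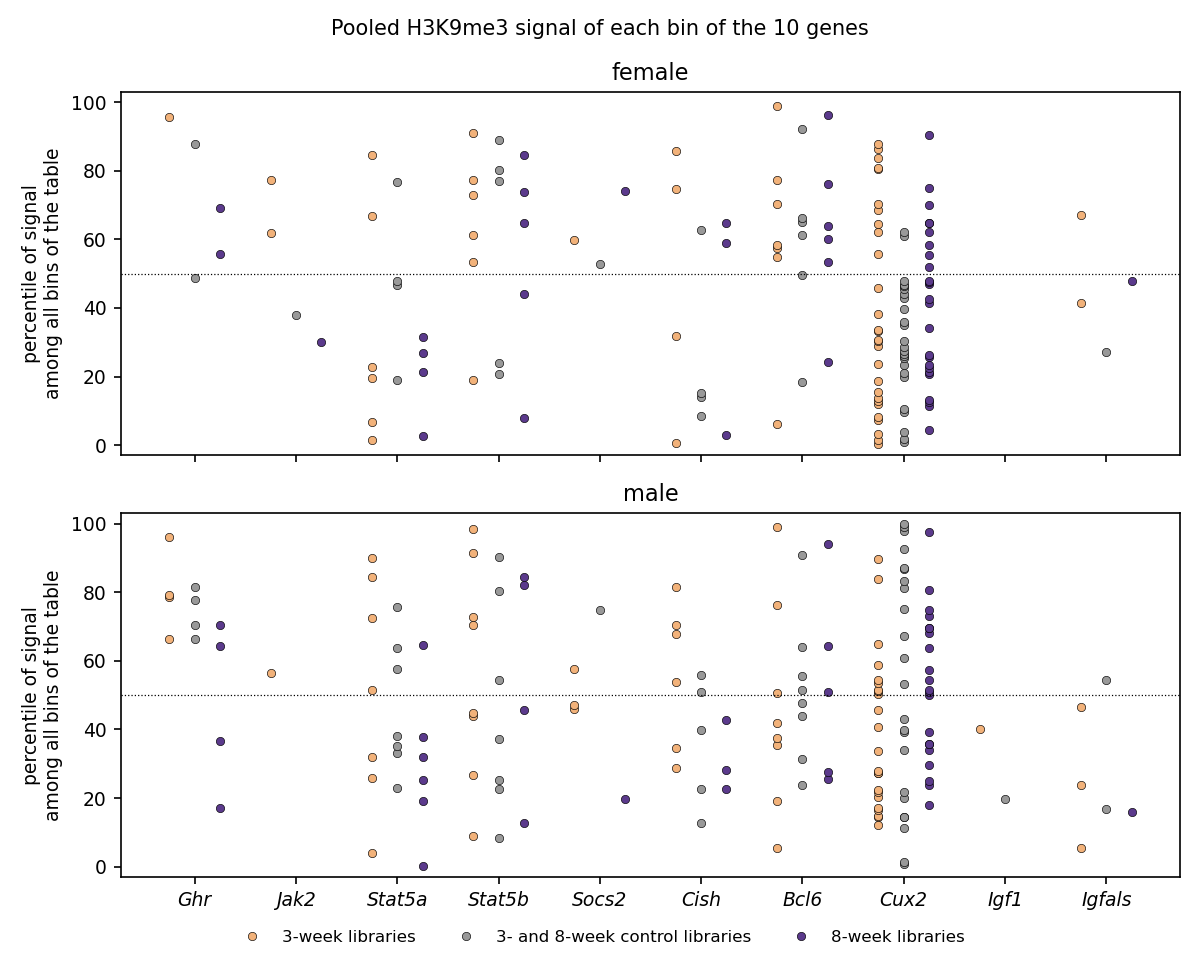
Percentile of the pooled mean signal among all bins of the same table, for each bin of the 10 genes (1 point per bin), with females above and males below and the 3 tables of a sex in orange (3 weeks), gray (controls of both ages) and purple (8 weeks). Percentiles take no account of bin width. Bins of Stat5a, Bcl6 and Cux2 spread over most of the range, and the highest points belong to Bcl6, Stat5b and Ghr at 3 weeks and, in the other tables, to Bcl6 and, in males, Cux2.

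The ages were compared at bins with the same coordinates in the 3-week and the 8-week table of a sex, which share no library. There were 76657 such bins in females and 69096 in males. The difference (8 weeks minus 3 weeks, in log2 CPM) had a median of 0.23 in females and 0.63 in males over all these bins, and this shift was subtracted, so values below are relative to the typical bin. A centered difference of at least 0.5 was used as the size that counts. Lower at 8 weeks by that size were 4 of 21 member bins in females, beside 2.99% of all bins, and 2 of 20 in males, beside 3.49%. No member bin was higher by that size (0 in either sex), beside 4.57% of all bins in females and 5.48% in males. Without the centering, which moves all bins alike, 0 member bins were lower by 0.5 in either sex, beside 0.291% of all bins in females and 0.00145% in males. In that case 2 of 21 member bins in females were higher by 0.5, beside 16.6% of all bins, and 9 of 20 in males, beside 68.1%.

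With these 6 bins included, the centered difference was negative at 14 of 21 member bins in females and 15 of 20 in males, beside 50% of all bins, with medians of -0.17 and -0.15. Among all bins above percentile 70 at 3 weeks, 6.06% in females and 6.73% in males were lower by at least 0.5, with medians of -0.04 and -0.08. The member bins above that percentile were lower by that size at 4 of 14 positions in females and at 2 of 12 in males, with medians of -0.32 and -0.37. These are the same 6 bins.

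**Figure D5:**
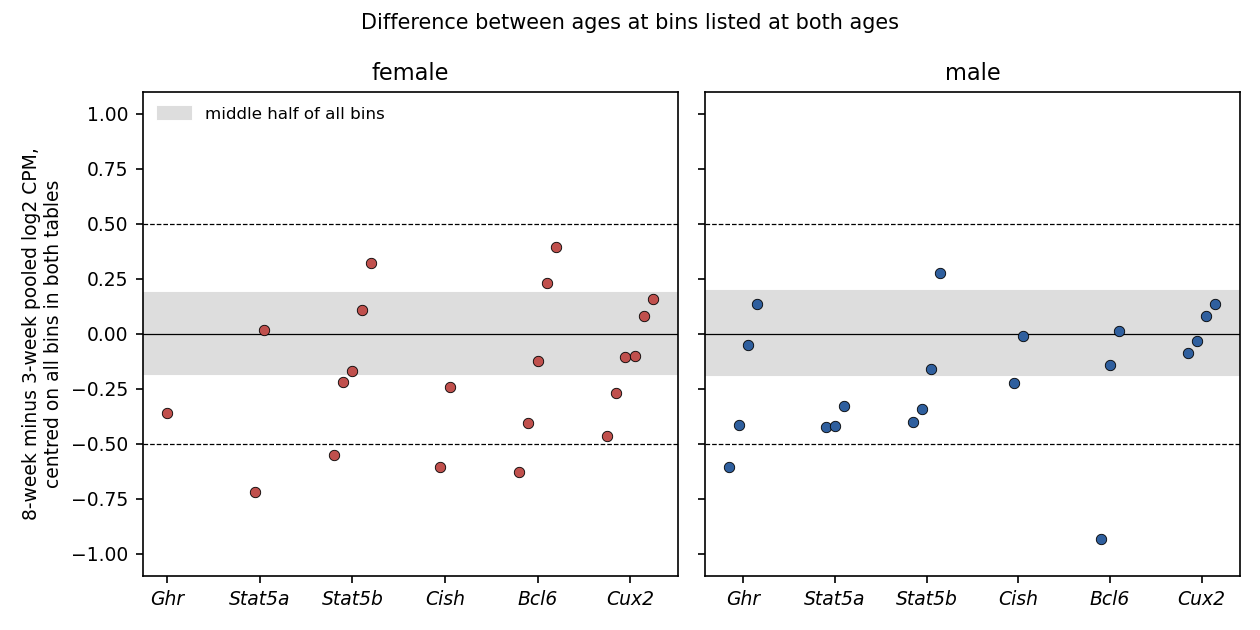
Difference between the 8-week and the 3-week pooled mean in log2 CPM, centered on all bins listed at both ages, for each member bin so listed (1 point per bin). The gray band holds the middle 50% of all bins, dashed lines mark differences of 0.5, and points below the lower line belong to Stat5a, Stat5b, Cish and Bcl6 in females and to Ghr and Bcl6 in males.

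The largest of these differences was in males, at the upstream Bcl6 bin described above, with a centered difference of -0.63 in females and -0.93 in males. In CPM the means were 8.90 at 3 weeks and 6.74 at 8 weeks in females, and 7.29 and 5.92 in males. Only 0.865% of all female bins and 0.0405% of male bins had a difference as low. It was the only member place lower by 0.5 in both sexes; of the 34178 places of the series listed at both ages in both sexes, 99 were.

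The largest in females was at Stat5a, at the bin in the 3' part of the gene. Its mean was 6.51 CPM at 3 weeks and 4.63 at 8 weeks, a centered difference of -0.72, and its percentile went from 84.5 to 2.69. The overlapping male bin had -0.42, with percentiles of 89.9 and 37.7, while its mean before centering went from 5.43 to 6.27 CPM. Stat5b showed the same direction after centering in intron 3 (female chr11:100804194-100804694), at -0.55 in females and -0.40 in males. The means there went from 6.15 to 4.91 CPM in females and from 5.55 to 6.53 in males. The Cish bin 9.92 kb downstream of the gene start had -0.61 in females, from 6.05 to 4.65 CPM. In males the Ghr bin at -162 kb had -0.60, from percentile 96.0 to 36.7, with means of 6.12 and 6.24 CPM. These negative male values at Stat5a, Stat5b and Ghr thus rest on the shift that was subtracted.

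Bins at the main start of a gene had differences near 0 or above it. The Stat5b promoter bin had 0.32 in females and 0.28 in males, the female Bcl6 promoter bin at +0.778 kb had 0.23, the male Ghr promoter bin had 0.14 and the female Stat5a promoter bin had 0.02. The Bcl6 intron 1 bin with STAT motifs had 0.39 in females and 0.01 in males, and the male Cish bin with motifs had -0.01. The largest positive value of all member bins was this 0.39, below the size that counts. Cux2 bins lay between -0.47 and 0.16 in females and between -0.09 and 0.14 in males.

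In all, 8 member places were listed at both ages in both sexes. The sign of the centered difference was the same in females and males at all 8, negative at 6 and positive at the Bcl6 intron 1 bin and at a Cux2 bin upstream of the gene. Over the 34178 such places of the series the sign was the same at 64.3%, and negative in both sexes at 25.5%. These signs depend on the centering. Before it, the male difference was positive at the Ghr, Stat5a, Stat5b and Cish places and negative at the upstream Bcl6 place (-0.30). The differences between the ages are between pooled means of 8 libraries, from which no spread can be computed. The authors' own comparison of the ages in control offspring was not used. Which differences exceed the variation between animals was therefore not tested here.

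Of 60 female peaks of the members, 58 touched a male peak, beside 77.1% of all female peaks. Of 65 male peaks, 55 touched a female peak, beside 72.8% of all male peaks. Cux2 gave 30 of these female and 23 of these male peaks, up to 17.7 and 30.3 kb long. The median over all peaks was 781 bp in females and 745 bp in males. Longer peaks touch others more easily, and touching peaks were not counted without Cux2. Of the listed bins, 39 of 99 distinct female bins overlapped a male member bin by at least 50% of the shorter one, and none had identical coordinates. Against male bins of any gene the count was 41 of 99, beside 53.8% of all female bins.

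The rest of the pathway was read from 4 lists. Of 18 genes of receptor signaling and its inhibitors, 16 had a bin in females and 17 in males, with a median coverage of 25.4% and 29.6%. The share of all genes with a bin was not counted, so for no list can the number with a bin be set against it. In each sex 1 of the 18 had no base inside a peak, beside 19.8% of all genes in females and 20.8% in males. The inhibitor genes Socs3 (100% in both sexes) and Socs1 (92.3% in females, 100% in males) were inside peaks over nearly all their length. They span only 3.97 and 3.30 kb. Socs2 spans 31.8 kb, and the peak over its start, of 3.02 kb in females and 3.84 kb in males, is about as long as these whole genes. Of the list, Egfr, Gab1 and Socs1 had the highest CPM per kb (34.4, 33.6 and 26.1), in short bins of 159, 147 and 202 bp that lay at percentiles 11.1, 8.41 and 6.74 of their tables by CPM alone. The Egfr bin was intergenic, 23.3 kb from the nearest start, and the Gab1 bin lay in intron 1. The Socs1 bin lay 67.2 kb from its start, in an intron of another annotated transcript. Of the 66 female bins of the list at both ages, 3 were lower by 0.5 and 0 higher, and of the 56 male bins 1 was lower and 1 higher. For this and the following lists the shares over all bins were 2.99% lower and 4.57% higher in females and 3.49% lower and 5.48% higher in males.

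All 14 genes of the IGF family and its binding proteins had a bin in both sexes, while Igf1 had none in females. Of the 14, 0 lacked a base inside a peak in either sex, beside 19.8% of all genes in females and 20.8% in males. Their median coverage was 28.8% in females and 29.3% in males. Igf2, the fetal growth factor, had the highest value, at its promoter, with 50.7 CPM per kb in control males (percentile 99.99), and it was covered over 77.1% and 77.0% of its length. Igfbp3 (39.3 CPM per kb) and Igf1r (38.5) followed with bins of 139 and 143 bp, at percentiles 25.3 and 12.4 by CPM alone. The Igfbp3 bin was intergenic, 90.9 kb from the nearest start and 100% repeat, and the Igf1r bin lay in intron 2. In males 2 of 67 bins of this list were lower at 8 weeks and 6 higher, and in females 2 of 80 were lower and 0 higher, beside 3.49% and 5.48% of all male bins and 2.99% and 4.57% of all female bins.

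All 10 genes of the hepatic factors that work with STAT5 had a bin in both sexes, with a median coverage of 11.4% in females and 19.1% in males. Of the 10, 0 lacked a base inside a peak in either sex, beside 19.8% of all genes in females and 20.8% in males. Cux1, the relative of Cux2, was covered over 12.5% in both sexes, against 85.8% and 90.4% for Cux2. Cebpb (112 CPM per kb), Tox (38.9) and Hnf4a (38.3) had the highest values per length, in bins of 44, 177 and 141 bp. By CPM alone these bins lay at percentiles 1.77, 66.6 and 23.0 of their tables, so the values per length rest on short bins. The Cebpb bin lay 8.75 kb from its start, in an intron of another annotated transcript, the Tox bin in exon 7 and the Hnf4a bin at the promoter. At 8 weeks 4 of 40 male bins were lower and 1 higher, and 0 of 39 female bins were lower and 1 higher, against the same shares over all bins.

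The 12 sex-biased liver genes that depend on growth hormone were mostly bare, with a median coverage of 2.21% in females and 2.05% in males, although 12 had a bin nearby in females and 11 in males. No base inside a peak was found for 2 of the 12 in females and 4 in males, beside 19.8% and 20.8% of all genes. Their strongest bins per length lay outside the genes: Cyp3a41a, a female-specific cytochrome P450, with 68.4 CPM per kb in 8-week males at +32.8 kb (65.1% repeat), and Sult3a1, a female-specific sulfotransferase, with 57.2 at -21.4 kb (100% repeat). Both belong to clustered gene families with near-identical copies, so reads there may be shared between copies. At 8 weeks 1 of 35 female bins was lower and 4 were higher, and 2 of 38 male bins were lower and 6 higher, against the same shares over all bins.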

How the data were processed

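H3K9me3 ChIP-seq was compared over 32 liver libraries in 8 groups. By the published protocol, BWA alignments to mm10/GRCm38 were the basis of broad MACS2 peaks, blacklisted regions were left out, and consensus peaks (at least 3 replicates) were merged over conditions in each sex and cut into bins of 500 bp, in which featureCounts counted reads. The deposited signal is the authors' average log2 CPM over the 8 libraries of a comparison. The tables also hold the authors' own fold changes, p-values and false discovery rates, which were not used. Each table lists 1 bin per peak, and how that bin was chosen is not stated.

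Peak positions were joined over the 3 tables of a sex. Gene bodies came from GENCODE M21 (protein-coding genes), and sequences and soft-masking from the RefSeq GRCm38 genome. Percentiles are ranks among all bins of a table. Every member was named with its bins, and for each of the 4 lists the 3 genes with the highest CPM per kb, of which 1 is not reported here. Socs3 and Cux1 were named after their values were seen. The comparison of ages and the gene body coverage were added after seeing the data. Members and lists were chosen with earlier results of these data known. Functions were tested on simulated data. Python 3.11.15, numpy 2.4.6, pandas 2.3.3, scipy 1.17.1, pysam 0.24.0 and matplotlib 3.10.9 were used. The input libraries were not used here.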

Additional observations from a re-analysis of the deposited data

How the results depend on the processing

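Of 88 values recomputed under another setting, 64 stayed close to the reported value and 24 moved. Keeping only bins above their table's median left 145 of 321 member bins. With the strongest bin of each member in place of all bins, the median signal against its table became 0.31, 0.10 and 0.18 (log2) in 3-week, control and 8-week females and 0.34, 0.25 and 0.16 in males. Per kb it was -0.25 and -0.22 in control and 8-week females and -0.16, -0.19 and -0.20 in males. Identical coordinates were shared between the sexes by 0 bins, a mask of 80% was met by 1.41% of bins, and TTCCNGGAA was in 3.29%. With peaks listed in all 3 tables of a sex, Cux2 was covered over 81.1% in females. Coverage of Ghr in females was then 0%, of Stat5b in males 11.6% and of Bcl6 in males 19.6%.

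The settings for coverage and for the ages were chosen after seeing the data. Without centering, which moves all bins alike, 0 member bins were lower at 8 weeks in either sex, beside 0.291% of all bins in females and 0.00145% in males. A size of 0.4 gave 5 bins in males, and peaks of a single bin gave 0 of only 2 member bins in females and 1 of 8 in males. No paired analysis was possible because the values are means over pooled libraries, and leaving out a replicate or a test between libraries needs values per library, which were not analysed here. Depth limits every statement on a missing peak.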
